A study of Rattus norvegicus with 16 samples.

Results

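Fibroblast growth factor 2 was added to rat myelinating cultures as 2 preparations, one labelled humanFGF2 and one labelled wtFGF2, and the genes whose expression differed between them were determined. The comparison was made between the 4 arrays that carry the treatment label wtFGF2 and the 4 arrays labelled humanFGF2, which together were 8 of the 16 arrays of the series. The cultures were spinal cord cells of embryonic day 15.5 Sprague-Dawley rats plated on astrocytes grown from striatal neurospheres of postnatal day 1 pups. They contain neurons, astrocytes, oligodendrocytes and their progenitors, and microglia. Each factor was added after 18 days in vitro and RNA was collected after 24 h, on day 19. The other groups were 4 untreated control arrays, which serve here as a background, and 4 arrays of F2V2, a truncated FGF2 variant, which entered the fit only to estimate the spread.

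The human FGF2 was a recombinant protein. The labels give neither the source nor the concentration of wtFGF2, so a difference in concentration and a difference in the protein cannot be told apart. All groups came from the same strain and culture method, and the labels name no allele. The series text speaks of independent cultures and a legend of the study of technical replicates, so the p-values below measure the spread between these arrays, which may be technical. RNA came from whole cultures, in which fewer cells of a type and less RNA per cell cannot be told apart.

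FGF2 binds receptor tyrosine kinases of the FGFR family together with heparan sulfate and activates the Ras and ERK cascade. Within that cascade, transcription factors of the immediate early class are induced, and the Sprouty proteins and dual specificity phosphatases that follow them dampen the signal. In glial cultures FGF2 is known as a mitogen of oligodendrocyte progenitors and as a factor that holds back their maturation.

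Expression was measured on arrays as log2 values, so a difference of 1 is a 2-fold difference. The table held 36685 transcript clusters, and the 15653 of them with a gene symbol entered the tests. The lowest value was 3.02, and a level under 5 was treated as dim. The number of arrays, 4 in each group, limits the precision: the median SE of the difference between the preparations was 0.075 and the median 95% interval reached 0.16 to either side. All arrays of a group correlated at 0.996 or more, and wtFGF2 arrays correlated with humanFGF2 arrays at 0.995 to 0.997. In a principal component analysis of the 16 arrays, component 1 (63% of the variance) placed the control arrays between -38.5 and -35.9, the wtFGF2 arrays between 9.69 and 12.1 and the humanFGF2 arrays between 24 and 27.8. In the 8 arrays alone component 1 (39.6%) separated the preparations, with wtFGF2 replicate 1, at 15.5, farther out than the other wtFGF2 arrays, at 8.91 to 9.82.

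The cell types named by the labels were present by their defining markers. Slc1a3 and Gja1 of astrocytes, Mog and Cnp of oligodendrocytes, Pdgfra, Cspg4 and Olig2 of progenitors, Tubb3 and Nefl of neurons, and Aif1, Itgam and Csf1r of microglia all had mean levels above 5 with both preparations. The lowest was Itgam, at 6.36 with humanFGF2 and 6.32 with wtFGF2. Aldh1l1, Snap25, Gfap, Fgf2 and Fgfr1 to Fgfr3 were not analysed here.

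The cultures given wtFGF2 expressed less of the cytokines Il11 and Lif, the transcription factor Egr2, the proteases Mmp13 and Mmp3 and the ERK phosphatase Dusp5. They expressed more of several glial genes, among them the potassium channel Kcnj10 and the oligodendrocyte lineage receptor Gpr17. A cluster was called where the adjusted p of limma was under 0.05 and the difference was at least 1.4-fold, or 0.49 on the log2 scale. Of the 15653 clusters, 309 were called, which is 1.97%. Of these, 109 (0.696% of those tested) were higher and 200 (1.28%) were lower with wtFGF2. The groups did not overlap for 302 of the 309, or 97.7%, against 15.7% of all clusters tested. The calls were selected on these same arrays, so this describes them and adds no support. By the adjusted p alone 8.44% of clusters passed, and 1012 of these differed by less than 1.4-fold. Differences of at least 2-fold were found for 34 called clusters, 8 higher and 26 lower. For 14224 clusters, or 90.9%, the 95% interval of the difference lay within 1.4-fold either way, and 1120 (7.16%) were neither called nor bounded in this way. The median difference over all clusters was 0.002.

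**Figure D1:**
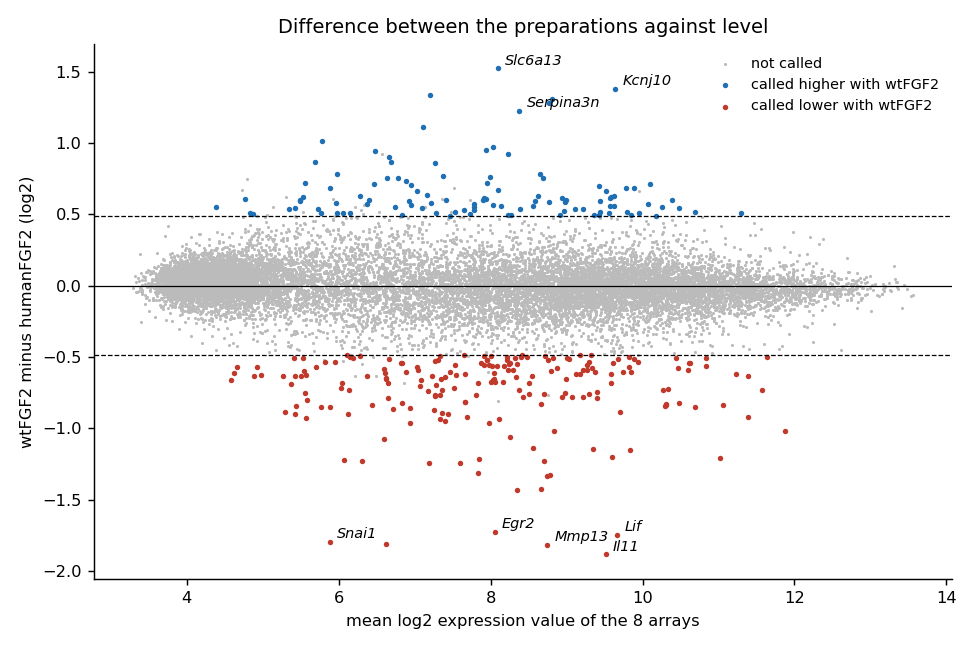
Difference between wtFGF2 and humanFGF2 (log2, vertical axis) against the mean log2 value of the 8 arrays (horizontal axis) for the 15653 transcript clusters with a gene symbol, with the 1.4-fold threshold dashed. Called clusters lie at levels from dim to bright, and the largest differences are those of lower clusters, down to -1.89 for Il11, while the highest is 1.52 for Slc6a13.

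Promoter windows of 6 genes that were lower with wtFGF2 are shown, as examples of windows that hold an AP-1 match or a serum response element, a site bound by Srf. Each runs from 250 bases before to 50 bases after the annotated start (RefSeq, GRCr8), 5′ to 3′ on the strand of the gene. Capitals mark AP-1 matches (TGANTCA, searched on both strands) in Il11, Mmp13, Mmp3 and Tfpi2, and matches to the serum response element in Egr2 and Dusp5. The windows are chr1:78098372-78098671 on the plus strand for Il11, chr8:12782579-12782878 on the plus strand for Mmp13, chr8:12925031-12925330 on the plus strand for Mmp3, chr4:32941227-32941526 on the minus strand for Tfpi2, chr20:21054392-21054691 on the minus strand for Egr2 and chr1:262543524-262543823 on the plus strand for Dusp5.
Il11: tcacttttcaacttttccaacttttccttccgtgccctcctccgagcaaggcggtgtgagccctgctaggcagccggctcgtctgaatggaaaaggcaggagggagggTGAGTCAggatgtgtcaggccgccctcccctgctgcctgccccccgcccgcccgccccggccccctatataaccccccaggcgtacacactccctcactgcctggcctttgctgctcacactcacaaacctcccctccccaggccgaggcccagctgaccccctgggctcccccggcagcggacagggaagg
Mmp13: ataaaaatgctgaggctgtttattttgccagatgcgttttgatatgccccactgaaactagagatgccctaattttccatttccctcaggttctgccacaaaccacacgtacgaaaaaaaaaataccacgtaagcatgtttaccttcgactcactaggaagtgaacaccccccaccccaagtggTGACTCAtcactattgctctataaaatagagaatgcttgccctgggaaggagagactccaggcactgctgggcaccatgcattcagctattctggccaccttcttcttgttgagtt
Mmp3: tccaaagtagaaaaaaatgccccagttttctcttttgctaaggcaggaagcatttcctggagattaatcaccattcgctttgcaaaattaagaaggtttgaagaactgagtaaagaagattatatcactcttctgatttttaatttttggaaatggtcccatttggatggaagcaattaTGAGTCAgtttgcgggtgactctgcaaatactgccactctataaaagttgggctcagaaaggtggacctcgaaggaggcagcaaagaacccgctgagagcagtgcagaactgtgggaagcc
Tfpi2: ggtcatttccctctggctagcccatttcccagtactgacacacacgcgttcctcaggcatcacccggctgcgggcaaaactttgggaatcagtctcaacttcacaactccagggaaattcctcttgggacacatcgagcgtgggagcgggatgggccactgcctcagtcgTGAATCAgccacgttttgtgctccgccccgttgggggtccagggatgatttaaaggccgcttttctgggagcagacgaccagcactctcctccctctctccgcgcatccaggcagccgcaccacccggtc
Egr2: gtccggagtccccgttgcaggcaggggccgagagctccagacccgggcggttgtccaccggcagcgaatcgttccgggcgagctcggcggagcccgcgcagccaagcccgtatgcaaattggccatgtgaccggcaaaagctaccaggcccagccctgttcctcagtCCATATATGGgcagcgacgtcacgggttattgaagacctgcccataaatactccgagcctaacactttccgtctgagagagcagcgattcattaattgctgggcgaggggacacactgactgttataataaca
Dusp5: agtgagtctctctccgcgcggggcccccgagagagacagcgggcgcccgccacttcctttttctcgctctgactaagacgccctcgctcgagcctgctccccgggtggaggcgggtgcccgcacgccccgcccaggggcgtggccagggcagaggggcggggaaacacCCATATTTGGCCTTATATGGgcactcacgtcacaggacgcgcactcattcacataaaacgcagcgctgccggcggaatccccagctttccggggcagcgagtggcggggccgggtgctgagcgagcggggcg

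The AP-1 match began 142 bases before the start in Il11, 66 in Mmp13, 71 in Mmp3 and 80 in Tfpi2. The serum response element began 83 bases before the start in Egr2, and Dusp5 held 2 adjacent matches, at 82 and 72 bases. Among all 33469 promoter windows of the same length, 7.33% held an AP-1 match and 1.64% a serum response element. Of the 194 genes called lower, 149 had a window, and 18 of these (12.1%) held an AP-1 match and 4 (2.68%) a serum response element. Of the 109 genes called higher, 87 had a window, with 3 AP-1 matches (3.45%) and 3 serum response elements (3.45%). The NF-kB pattern GGGNNNNNCC was found in 68.5% of the lower and 66.7% of the higher genes with a window, against 55.6% of all genes tested that had one, where AP-1 stood at 6.77%. The pattern GAAANNGAAA of the interferon-stimulated response element was found in 4.7% of the lower and 3.45% of the higher genes, against 3.5%, and the ATF4 pattern TGATGNAA in 2.68% and 1.15%, against 3.13%. These are letter matches and no test was run on them. Windows for Lif and Clcf1 were not used here.

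The lowest difference of all clusters belonged to a cytokine. Il11, an interleukin 6 family cytokine that signals through gp130 (transcript cluster 17613051), read 10.31, 10.51, 10.57 and 10.45 on the humanFGF2 arrays. On the wtFGF2 arrays it read 8.54, 8.46, 8.57 and 8.72, and on the control arrays 5.12, 4.57, 4.6 and 5.26. The 3 groups did not overlap, and Il11 was 3.69-fold lower with wtFGF2 (log2 difference -1.89, 95% interval -2.26 to -1.51, adjusted p = 4.22e-06). Lif, a cytokine of the same family known to act on oligodendrocytes and astrocytes, read 10.63, 10.65, 10.48 and 10.4 with humanFGF2 and 8.91, 8.74, 8.59 and 8.92 with wtFGF2. It was 3.36-fold lower (log2 difference -1.75, 95% interval -1.93 to -1.57, adjusted p = 7.74e-09), with control arrays at 6.18 to 6.31. Clcf1, the third cytokine of the family to be called, read 9.19 to 9.42 with humanFGF2 and 7.88 to 8.24 with wtFGF2, a 2.34-fold difference.

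Of the EGF receptor ligands, Hbegf, Areg and Ereg were lower with wtFGF2. Hbegf read 11.61, 11.61, 11.68 and 11.58 with humanFGF2 and 10.42, 10.29, 10.31 and 10.62 with wtFGF2. The groups were well apart, with a difference of -1.21 (95% interval -1.38 to -1.04, adjusted p = 2.53e-07). Areg was lower by -0.89 and Ereg by -0.66 on the log2 scale. Areg was dim with wtFGF2, at a mean of 4.85. Ereg was dim with both preparations, at means of 4.91 with humanFGF2 and 4.25 with wtFGF2. The call of Ereg was lost without humanFGF2 replicate 1, where the difference was -0.48, and in a fit of the 8 arrays alone. Tgfa, another ligand, gave means of 7.04 with humanFGF2 and 7.26 with wtFGF2 and did not pass the test (difference 0.22, 95% interval 0.04 to 0.41, adjusted p = 0.149). The neurotrophin Bdnf read 7.74 to 7.9 with humanFGF2 and 6.75 to 6.95 with wtFGF2 (difference -0.93), and the IGF binding protein Igfbp3 12.25 to 12.5 and 11.27 to 11.45 (difference -1.02). Hgf, the ligand of the Met receptor, went the other way: it read 9.78 on average in control arrays, 6.38 to 6.44 with humanFGF2 and 6.98 to 7.26 with wtFGF2, a difference of 0.76 (adjusted p = 7.31e-06). Of the 21 measured growth factors and interleukin 6 family genes, 8 were called lower and 1 higher. That is 42.9% called, against 1.97% of all clusters, and the list median was -0.13.

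**Figure D2:**
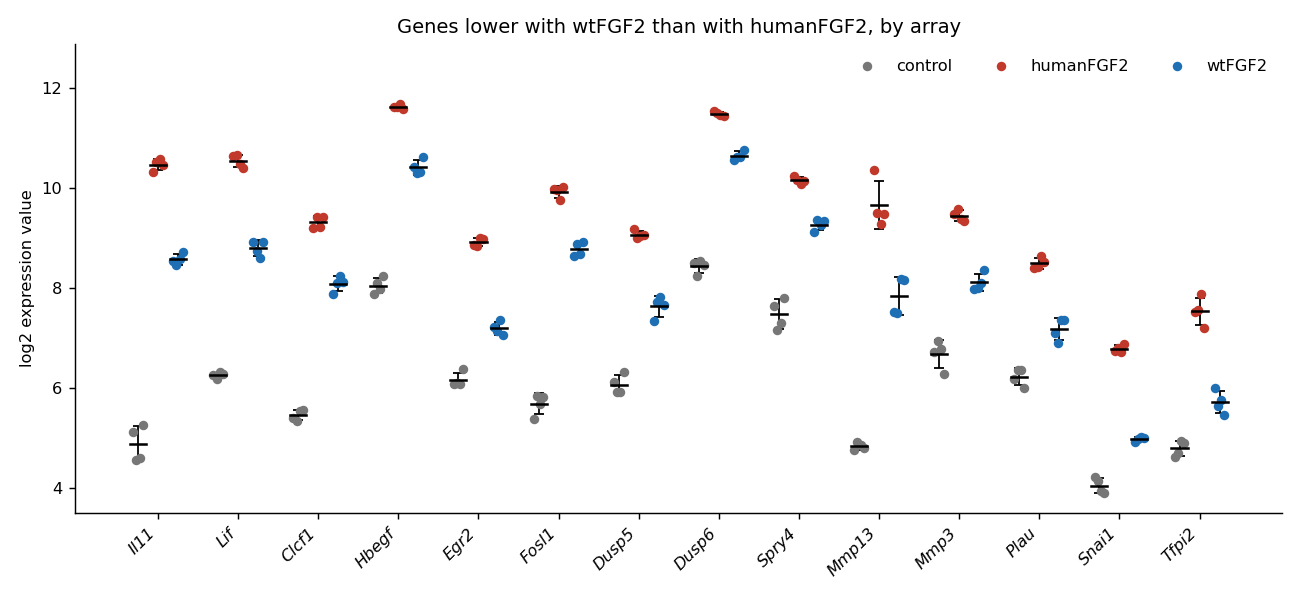
Log2 expression value (vertical axis) of 14 genes called lower with wtFGF2, for the 4 control, 4 humanFGF2 and 4 wtFGF2 arrays, each array a point, with the group mean (line) and SD (bar). In every gene shown the humanFGF2 points lie above the wtFGF2 points, and the wtFGF2 points above the control points, as for Il11 at 10.31 to 10.57, 8.46 to 8.72 and 4.57 to 5.26.

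Several immediate early genes, known as rapid targets of ERK, were lower with wtFGF2 at this 24 h time point. Egr2, a zinc finger factor, read 8.85, 8.84, 9 and 8.98 with humanFGF2 and 7.21, 7.14, 7.36 and 7.05 with wtFGF2, against 6.09 to 6.38 in control arrays. The difference of -1.73 was 3.31-fold (95% interval -1.93 to -1.53, adjusted p = 2.22e-08). Fosl1, a subunit of AP-1, read 9.97, 9.95, 9.75 and 10.01 with humanFGF2 and 8.63, 8.88, 8.67 and 8.91 with wtFGF2 (difference -1.15, adjusted p = 3.61e-05). Its relative Fosb differed by -0.73 and Egr1 by -0.92, the latter from 11.82 to 11.86 down to 10.8 to 11.05. Klf10 (-0.78), Phlda1 (-0.74), Ier2 (-0.56) and Ier3 (-0.54) completed the called members. The calls of Ier2 without wtFGF2 replicate 1 and of Ier3 without humanFGF2 replicate 1 were lost, at -0.47 and -0.42. Of the 27 measured members of the list, 8 (29.6%) were called lower and none higher, against 1.28% of all clusters called lower. The median difference was -0.39. By the adjusted p alone 17 were lower, against 4.93% of all clusters. Among members not called, Fos (-0.07), Etv5 (0), Atf3 (0.06), Jund (0.08) and Nr4a2 (-0.02) differed little.

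Snai1, a zinc finger repressor outside that list, was among the lowest of all called genes. It read 6.73, 6.8, 6.72 and 6.88 with humanFGF2 and 4.93, 4.98, 5.02 and 5 with wtFGF2. The wtFGF2 values were at the edge of the dim range and the control values, 3.9 to 4.22, were below it. The difference was -1.8 (95% interval -2.01 to -1.58, adjusted p = 2.22e-08).

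Feedback inhibitors of the ERK cascade were among the lower genes as well. Dusp5, a nuclear ERK phosphatase, read 9.17, 8.99, 9.04 and 9.06 with humanFGF2 and 7.34, 7.71, 7.81 and 7.66 with wtFGF2, against 5.92 to 6.32 in control arrays. It differed by -1.43, or 2.7-fold (adjusted p = 1.11e-06). Dusp6, the cytoplasmic ERK phosphatase, read 11.53, 11.49, 11.46 and 11.43 with humanFGF2 and 10.55, 10.62, 10.62 and 10.76 with wtFGF2 (difference -0.84, adjusted p = 9.07e-07). Spry4, a Sprouty inhibitor of receptor tyrosine kinase signaling, read 10.08 to 10.24 and 9.12 to 9.35 (difference -0.89), and Dusp2 6.76 to 7.16 and 6.05 to 6.49 (difference -0.61). Errfi1, an inhibitor of the EGF receptor, passed the adjusted p at -0.45 but not the fold threshold, its 95% interval running from -0.53 to -0.37. Il17rd, an antagonist of FGF signaling, had the opposite sign, 7.7 to 7.83 with humanFGF2 and 8.13 to 8.28 with wtFGF2, and at 0.43 also stayed under 1.4-fold. In all, 4 of 14 measured members (28.6%) were called lower and none higher, against 1.28% and 0.696% of all clusters. The median difference was -0.33. By the adjusted p alone 9 were lower and 1 higher, against 4.93% and 3.51% of all clusters.

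Components of the FGF system itself differed in both directions. Kl, or klotho, the co-receptor of the hormone FGF23, read 8.73, 8.84, 8.75 and 8.8 with humanFGF2 and 7.36, 7.96, 7.79 and 7.77 with wtFGF2 (difference -1.06, adjusted p = 4.72e-05). Sdc1, a heparan sulfate carrier, differed by -0.68. The ligands Fgf9 (-0.55) and Fgf1 (-0.52) were lower, while Fgfrl1, a receptor without a kinase domain, was higher at 0.51, reading 9.62 to 9.75 with humanFGF2 and 10.14 to 10.28 with wtFGF2. Of 19 measured members, 4 were called lower and 1 higher, or 26.3%, against 1.97% of all clusters. The median difference was -0.01. Without wtFGF2 replicate 1 only 3 of the 19 were called, with Fgf1 at -0.48 and Fgf9 at -0.47. The call of Fgf9 was also lost without wtFGF2 replicate 4, that of Fgf1 without humanFGF2 replicate 1, and that of Fgfrl1 without wtFGF2 replicate 2 or humanFGF2 replicate 3, at differences just under 1.4-fold.

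Several extracellular proteases were lower. Mmp13, a collagenase, read 10.35, 9.5, 9.28 and 9.48 with humanFGF2 and 7.51, 7.49, 8.17 and 8.15 with wtFGF2. These arrays varied more than those of most genes, with SDs of 0.47 and 0.38, but did not overlap, and the control arrays lay at 4.77 to 4.93. The difference was -1.82, or 3.53-fold (95% interval -2.29 to -1.35, adjusted p = 5.55e-05). Mmp3, stromelysin, read 9.47, 9.58, 9.38 and 9.34 with humanFGF2 and 7.98, 8, 8.1 and 8.36 with wtFGF2 (difference -1.33, adjusted p = 2.88e-06). Plau, the urokinase plasminogen activator, read 8.4, 8.42, 8.64 and 8.52 and then 7.1, 6.89, 7.36 and 7.36 (difference -1.31). The gelatinase Mmp9 differed by -0.95 and Adamts9 by -0.78.

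Among protease inhibitors the directions were mixed. Tfpi2, a Kunitz inhibitor of serine proteases, read 7.51, 7.55, 7.87 and 7.2 with humanFGF2 and 6, 5.65, 5.77 and 5.47 with wtFGF2 (difference -1.81, adjusted p = 2.53e-07). Timp4, a tissue inhibitor of metalloproteinases, was higher with wtFGF2 by 0.67, while Timp1 gave means of 12.64 and 12.5 and a difference of -0.13 with a 95% interval from -0.29 to 0.02, within 1.4-fold either way. Of the 22 measured metalloproteinases, Timps and plasminogen activation genes, 5 were called lower and 1 higher, or 27.3%, against 1.97% of all clusters. Their median difference was -0.09.

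Of the interleukin 1, TNF and NF-kB genes, 4 of 35 measured (11.4%) were called, all lower, against 1.28% of all clusters called lower. The list median was -0.07. Ptgs2, the inducible cyclooxygenase, read 9.79, 9.29, 9.13 and 9.28 with humanFGF2 and 7.98, 8.36, 7.71 and 7.75 with wtFGF2 (difference -1.42, 95% interval -1.87 to -0.97). Tnfrsf12a, a receptor of the TNF family, differed by -0.83, the interleukin 1 receptor antagonist Il1rn by -0.75 and Tnfaip2 by -0.68, with groups that did not overlap. Nfkbia, the inhibitor of NF-kB, passed the adjusted p at 0.46, under the fold threshold, with means of 9.61 and 10.07. Among 24 chemokines only Ccl7 (4.17%) was called, at -0.56, against 1.97% of all clusters. That call was lost without wtFGF2 replicate 2, where the adjusted p was 0.0569. Cxcl1 had a nearly equal difference, -0.55, but an adjusted p of 0.0887. Its arrays did not overlap, at 6.45 to 6.72 with humanFGF2 and 5.94 to 6.17 with wtFGF2, and it was called under 1 alternative. The shared estimate of its spread included the F2V2 arrays, whose SD was 0.54, against 0.13 with humanFGF2 and 0.1 with wtFGF2.

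None of the 35 interferon-stimulated genes was called between the preparations, against 1.97% of all clusters, and their median difference was 0.08. Intervals within 1.4-fold either way were found for 20, against 90.9% of all clusters. By the adjusted p alone 3 of them were higher, against 3.51% of all clusters. Of the 35, 1 was called after quantile normalization, after subtraction of array medians, or without wtFGF2 replicate 1, 3 or 4 or humanFGF2 replicate 1 or 2. Compared with the control arrays 13 of the 35 were lower with wtFGF2 and 14 with humanFGF2, where 5.92% and 8.6% of all clusters were lower. None of the 14 class I antigen presentation genes, the 9 complement genes or the 21 microglia and macrophage genes was called. Of all clusters 1.97% were called, so few calls could fall in lists of this size. Bounded within 1.4-fold were 11, 7 and 17 of them, against 90.9% of all clusters. By the adjusted p alone the microglia gene Csf1r was higher, at 0.31 (adjusted p = 0.0218).

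**Figure D3:**
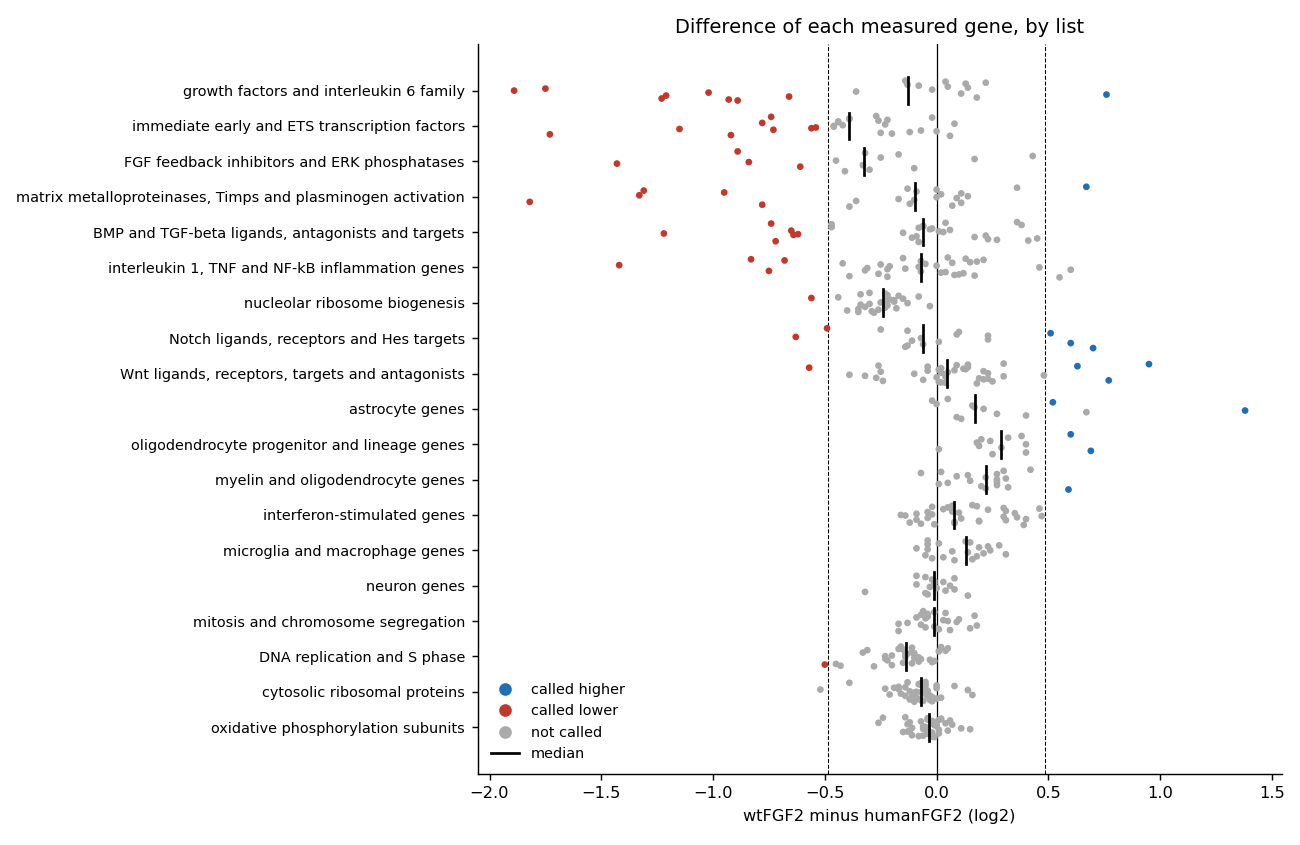
Difference between wtFGF2 and humanFGF2 (log2, horizontal axis) of every measured gene in 19 of the lists, each gene a point, with the list median as a line and the 1.4-fold threshold dashed. Points of the cytokine, immediate early, feedback and protease lists extend to the left, to -1.89 for Il11, the astrocyte, myelin and lineage lists have medians of 0.17 to 0.29, and mitotic, neuronal and oxidative phosphorylation genes lie close to 0.

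Of 29 measured BMP and TGF-beta genes 6 (20.7%) were called, all lower and all secreted, against 1.28% of all clusters called lower. The list median was -0.06. Grem1, a BMP antagonist, read 6.9, 6.51, 6.51 and 6.81 with humanFGF2 and 5.13, 5.52, 5.71 and 5.47 with wtFGF2 (difference -1.22, adjusted p = 1.16e-05). The ligands Tgfb3 (-0.74), Bmp2 (-0.72) and Inhba (-0.65) and the activin antagonists Fst (-0.64) and Fstl3 (-0.62) were also called. By the adjusted p alone 7 were lower and 3 higher, against 4.93% and 3.51% of all clusters. Those not called were the transducer Smad3 at -0.47 and, higher with wtFGF2, the ligands Bmp6 (0.45) and Bmp3 (0.41) and the receptor Bmpr1a (0.17).

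Notch and Wnt components were called in both directions. Dll1, a Notch ligand, read 6.59, 6.52, 6.81 and 6.45 with humanFGF2 and 7.2, 7.31, 7.28 and 7.41 with wtFGF2, against a control mean of 8.31 (difference 0.7, adjusted p = 1.16e-05). The receptor Notch1 (0.51) and the target Hes5 (0.6) were higher, and the ligand Jag1 (-0.63) and the regulator Nrarp (-0.49) lower. Of 17 Notch genes 5 (29.4%) were called, against 1.97% of all clusters. Without humanFGF2 replicate 1 only 3 were called, where Notch1 was at 0.48 and Nrarp was lost too. Nrarp, whose arrays overlapped between the groups, also lost its call without wtFGF2 replicate 1 or 4 or humanFGF2 replicate 4, and with all transcript clusters, array medians subtracted, the one-way ANOVA contrast, the 8 arrays alone or a replicate block. Its difference ranged from -0.59 to -0.36 over all alternatives.

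Wnt7a, a ligand expressed in neural tissue, read 7.26, 7.53, 7.6 and 7.45 with humanFGF2 and 8.53, 8.53, 8.46 and 8.12 with wtFGF2 (difference 0.95, adjusted p = 1.3e-05). Its control arrays lay at 8.52 to 8.76. Fzd1, a Wnt receptor, differed by 0.77 and Wnt4 by 0.63, while Wnt2 was lower at -0.57, a call lost without humanFGF2 replicate 1, at -0.48. These were 4 of 40 measured members (10%), against 1.97% of all clusters. Axin2, a general target of canonical Wnt signaling, differed by 0.18 with a 95% interval from 0 to 0.36.

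Astrocyte genes were led by Kcnj10, the inward rectifier potassium channel of astrocytes (transcript cluster 17682108). It read 8.94, 9.01, 8.75 and 9.11 with humanFGF2 and 10.46, 10.34, 10.23 and 10.3 with wtFGF2, and 11.06 to 11.26 in control arrays. The groups were far apart, 2.6-fold, for a difference of 1.38 (95% interval 1.21 to 1.55, adjusted p = 3.25e-08). Slc4a4, a sodium bicarbonate cotransporter, was higher by 0.52 and lost its call without wtFGF2 replicate 4, at 0.48. Gja1, the astrocyte connexin, passed the adjusted p at 0.27 with an interval of 0.17 to 0.38, within 1.4-fold. Of 13 astrocyte genes 2 were called, both higher, against 0.696% of all clusters called higher. By the adjusted p alone 5 were higher, against 3.51% of all clusters. The mean level of the list was 9.84 to 9.9 on the humanFGF2 arrays and 10.14 to 10.21 on the wtFGF2 arrays.

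Serpina3n, a serine protease inhibitor used as a marker of reactive astrocytes, stood near the control level with humanFGF2 and above it with wtFGF2. It read 7.75, 7.88, 7.53 and 7.9 with humanFGF2 and 9.04, 9.05, 9.24 and 8.63 with wtFGF2, while the control arrays read 7.74, 8.09, 7.97 and 7.48. The humanFGF2 and control arrays overlapped, and the wtFGF2 arrays lay above both. The level was not highest with wtFGF2 in the series, as the F2V2 arrays read 9.55, 9.62, 9.94 and 9.62. The difference between the preparations was 1.23 (95% interval 0.93 to 1.52, adjusted p = 3.06e-05), against control it was 1.17 with wtFGF2 and -0.06 with humanFGF2. Of 29 reactive astrocyte genes it was the only one called higher, with Ptgs2 and Clcf1, which that list shares with others, called lower. That is 10.3% called, against 1.97% of all clusters, and the median was -0.02.

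Genes of the oligodendrocyte lineage that were called were higher with wtFGF2. Gpr17, a receptor of committed progenitors, read 9.39, 9.59, 9.29 and 9.47 with humanFGF2 and 10.06, 10.22, 10.16 and 10.04 with wtFGF2, against a control mean of 11.15 (difference 0.69, adjusted p = 7.81e-06). Zfp488, a transcription factor of the lineage, differed by 0.6. Olig1 (0.4), Sox8 (0.38) and Ugt8, a myelin lipid enzyme (0.42), passed the adjusted p but not the fold threshold, and Olig2 did neither, at 0.18 with an interval from 0.02 to 0.34. Aspa, the aspartoacylase of oligodendrocytes, was the called member of the myelin list, at 8.23 to 8.37 with humanFGF2 and 8.74 to 9 with wtFGF2 (difference 0.59).

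In counts, 2 of 13 progenitor and lineage genes and 1 of 19 myelin genes were called, all higher, against 0.696% of all clusters. The list medians were 0.29 and 0.22. By the adjusted p alone 8 genes of each list were higher and none lower, against 3.51% of all clusters higher. The mean level of the lineage list was 8.64 to 8.77 with humanFGF2 and 8.96 to 9.07 with wtFGF2, and that of the myelin list 8.24 to 8.33 and 8.47 to 8.55. Levels of other cell types overlapped between the preparations: neuron genes lay at 10.99 to 11.09 and 10.96 to 11.1, microglia genes at 8.1 to 8.32 and 8.18 to 8.54, fibroblast and mural genes at 8.56 to 9.19 and 8.67 to 9.08, and endothelial genes at 5.29 to 5.47 and 5.13 to 5.31. The part of shifts in cell number in these differences was not tested.

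**Figure D4:**
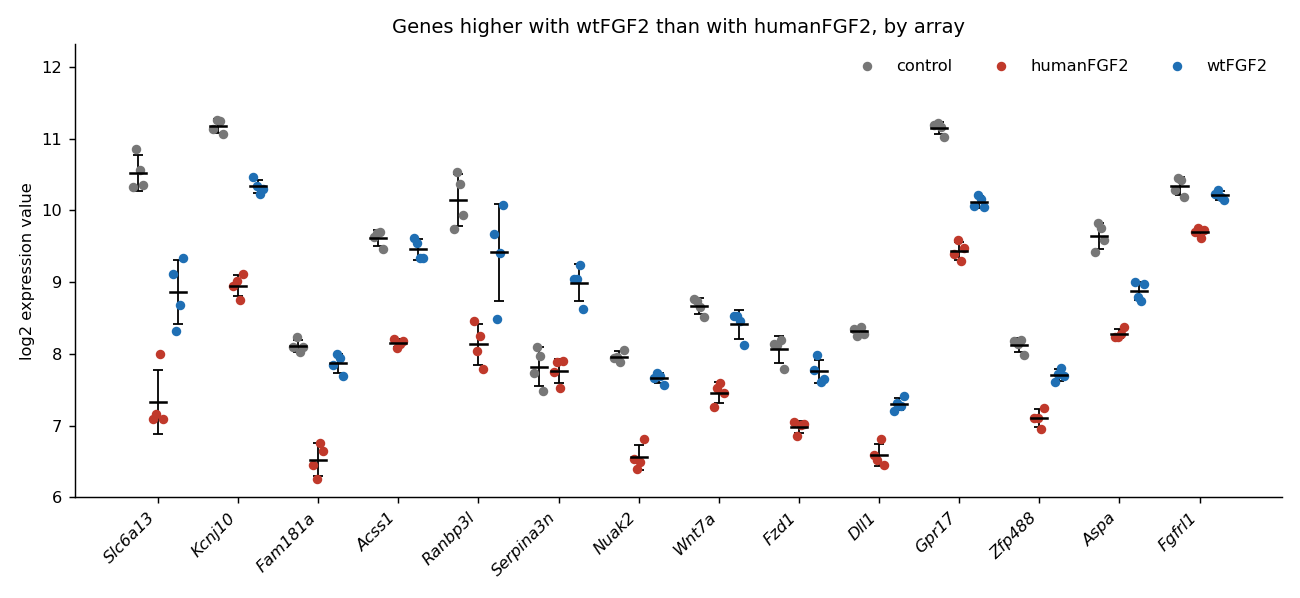
Log2 expression value (vertical axis) of 14 genes called higher with wtFGF2, for the 4 control, 4 humanFGF2 and 4 wtFGF2 arrays, each array a point, with the group mean (line) and SD (bar). Most are lowest with humanFGF2 and highest in control arrays, as Kcnj10 at 8.75 to 9.11, 10.23 to 10.46 and 11.06 to 11.26. Of the groups shown, wtFGF2 is the highest for Serpina3n, at 8.63 to 9.24.

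The gene with the highest difference of all was Slc6a13, a GABA transporter (transcript cluster 17786689). It read 7.09, 7.16, 8 and 7.09 with humanFGF2 and 9.11, 8.32, 8.68 and 9.33 with wtFGF2, against 10.32 to 10.85 in control arrays. Replicate 3 stood above the other humanFGF2 arrays but below every wtFGF2 array, and the difference was 1.52, or 2.87-fold (95% interval 1.08 to 1.97, adjusted p = 0.000189). Kcnj10, given above, followed at 1.38, then Fam181a at 1.34 and Acss1, a mitochondrial acetyl-CoA synthetase, at 1.31. Acss1 read 8.21, 8.08, 8.14 and 8.18 with humanFGF2 and 9.61, 9.55, 9.34 and 9.33 with wtFGF2, and its control arrays, at 9.46 to 9.7, overlapped those of wtFGF2. Ranbp3l read 7.79 to 8.46 and 8.49 to 10.08, with an SD of 0.68 for wtFGF2 and a difference of 1.28 (95% interval 0.71 to 1.84).

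The rest of the 15 highest called genes without overlap began with the kinase Nuak2 (1.11), the transcription factor Fezf2 (1.02) and Thrsp (0.97). Then came Gdpd2 (0.94), the Toll-like receptor partner Tril (0.92) and the kinase Stk32a (0.9). The sulfate transporter Slc13a4 (0.87) and the actin-binding protein Synpo2 (0.86) were the last of them. Slc13a4 rested on individual arrays: it read 6.29, 5.53, 5.69 and 6.96 with wtFGF2 and 5.01 to 5.52 with humanFGF2, and leaving out wtFGF2 replicate 1 or 4, or humanFGF2 replicate 1, 2 or 4, ended its call. With every array kept, the call was also lost with all transcript clusters, with the one-way ANOVA contrast, with the 8 arrays alone and with a replicate block. Among the 15 lowest not yet named, the endothelial lipase Lipg (-1.24), the small GTPase Rem2 (-1.24), the claudin Cldn23 (-1.23) and C3h15orf62 (-1.34) were called.

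Some stress, metabolic and adhesion genes were called. Trib3 (-0.64), Slc7a1 (-0.6), Ppp1r15a (-0.59) and Mthfd2 (-0.5) belong to the integrated stress response. These 4 of 35 measured (11.4%) were called lower and none was called higher, against 1.28% of all clusters called lower. Trib3 was dim with wtFGF2, at a mean of 4.95. Mthfd2 fell below 1.4-fold without wtFGF2 replicate 1, 2 or 3, its values then reaching -0.47. The lactate transporter Slc16a3 (-0.92) and hexokinase Hk2 (-0.78) were the 2 called of 22 glycolysis and hypoxia genes. That is 9.09%, against 1.97% of all clusters. Srebf1, a regulator of lipid synthesis, was higher at 0.68. It was the called one of 18 cholesterol synthesis genes, or 5.56%, against 1.97% of all clusters. By the adjusted p alone 6 others were lower, against 4.93% of all clusters. Among them were the enzymes Hsd17b7 (-0.46), Idi1 (-0.39) and Mvd (-0.36), and the list median was -0.11. The integrins Itga5 (-0.76) and Itgb4 (0.76) moved in opposite directions. Flt1, a VEGF receptor (-0.72), Gpx2 (-0.68) and the Cdk inhibitor Cdkn2b (-0.53) were lower.

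Mitosis genes differed little between the preparations, while some DNA replication genes were lower with wtFGF2. All 23 mitosis genes had 95% intervals within 1.4-fold between the preparations, with a median of -0.01. Called higher than control with each were 19 of the 23, against 7.06% of all clusters with wtFGF2 and 10.5% with humanFGF2. Of 34 DNA replication genes 30 were higher than control with wtFGF2 and 29 with humanFGF2. Their median difference between the preparations was -0.13, and 28 had intervals within 1.4-fold, against 90.9% of all clusters. By the adjusted p alone 4 were lower and none higher: Cdc6 (-0.5), Cdt1 (-0.45), Ccne2 (-0.43) and Ccne1 (-0.28). Cdc6 alone was called, or 2.94% of the list, against 1.97% of all clusters. That call was lost without wtFGF2 replicate 2 or 3 or humanFGF2 replicate 1, 2 or 4, where the difference reached -0.42.

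Neuron, oxidative phosphorylation and ribosomal protein genes were mostly bounded within 1.4-fold, as were 90.9% of all clusters. All 17 neuron genes had intervals within 1.4-fold, although Gap43, a growth cone protein, passed the adjusted p at -0.32. Of 44 oxidative phosphorylation genes 43, and of 45 ribosomal protein genes 42, were bounded, and none was called, against 1.97% of all clusters. Without humanFGF2 replicate 3 a single ribosomal protein gene was called. Nucleolar ribosome biogenesis genes lay lower together: 18 of 28 were lower by the adjusted p alone and none higher, against 4.93% of all clusters. Their median was -0.24, and 22 of the 28 were bounded. Only Rrp9 passed 1.4-fold, at -0.56, and it did not without wtFGF2 replicate 1, at -0.47.

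Each preparation was also set against the same 4 control arrays, so the values of these comparisons share their controls. With wtFGF2 2032 clusters were called, or 13%, of which 1105 (7.06%) were higher and 927 (5.92%) lower, and with humanFGF2 2983, or 19.1%, of which 1637 (10.5%) were higher and 1346 (8.6%) lower. The order of higher and lower turned with the scaling: after quantile normalization it was 1441 higher and 1532 lower for humanFGF2 and 1020 and 1025 for wtFGF2, and after subtraction of array medians 1450 and 1554, and 1025 and 1031. With all transcript clusters in the fit it was 2409 and 2682, and 1627 and 1830. Cd93, a C-type lectin receptor, was 6.21 above control with humanFGF2 and 5.37 with wtFGF2, on the log2 scale. The difference between the preparations was -0.84 (adjusted p = 0.000116), with arrays at 10.63 to 10.79 and 9.75 to 10.07. For Il11 the values were 5.57 and 3.69, for Mmp13 4.81 and 2.99, for Lif 4.29 and 2.54, for Fosl1 4.23 and 3.09, and for Ccl7 4.74 and 4.18. The control means of Cd93 (4.52), Il11 (4.89) and Mmp13 (4.84) were dim. Counted from the level of 5, their differences were at least 5.73 and 4.89 for Cd93, 5.46 and 3.57 for Il11 and 4.65 and 2.83 for Mmp13. Kcnj10 was below control by -2.22 with humanFGF2 and by -0.84 with wtFGF2, and Slc6a13 by -3.18 and -1.66.

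Other genes lay near the control level with 1 of the preparations. Fgf1 was 0.42 above control with humanFGF2 and at -0.1 with wtFGF2, and Nfkbia at 0 and 0.46. Acss1 stood at -1.47 with humanFGF2 and -0.16 with wtFGF2, and Fam181a at -1.58 and -0.24. Dusp2 was 0.56 above control with humanFGF2 and at -0.05 with wtFGF2.

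**Figure D5:**
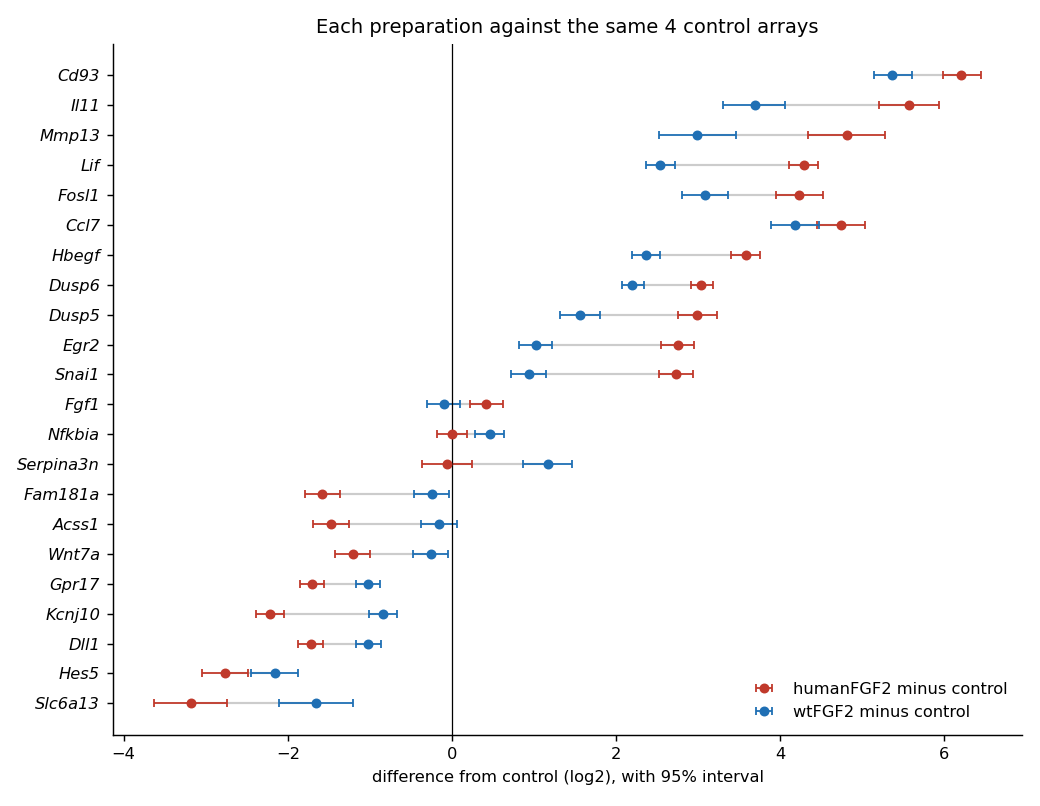
Difference from the 4 control arrays (log2, horizontal axis) with humanFGF2 and with wtFGF2 for 22 named genes, with 95% intervals as bars. For Cd93, whose control level was dim, the points are 6.21 and 5.37 and for Kcnj10 -2.22 and -0.84, while for Serpina3n only the wtFGF2 point, at 1.17, lies away from 0.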

How the data were processed

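RNA of rat cultures was hybridised to 16 Affymetrix Rat Gene 2.1 ST chips. The authors deposited log2 values per transcript cluster, made in Partek Genomics Suite 6.6 with GCRMA background correction and normalization and a Tukey biweight summary, per the labels and methods; the genome build was not given in the sources used here. Raw probe intensities were not used here. Symbols came from the platform annotation, updated through Entrez identifiers: 14824 clusters had 1 symbol and 829 several, which were tested but not named, and 21032 had none. A gene with several clusters is represented by the brightest one. limma 3.58.1 in R 4.3.3 fitted the 4 group means on all 16 arrays (the methods name a one-way ANOVA without stating the groups it held), with Benjamini-Hochberg adjustment over 15653 clusters. Levels were not compared between genes.

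Named genes were the 15 highest and 15 lowest called differences without overlap and not dim in both groups, the 4 members of each of 35 lists with the lowest adjusted p, and genes the study names; further called list members were added. The members and lists were chosen with earlier results of these data known. On simulated data with 100 clusters changed by 1 on the log2 scale 98 were recovered, and 81 of 100 changed by 0.6. The noise was drawn separately for each cluster, without the deviations that genes of a real array can share. Alternatives covered thresholds, filters, normalization, prior, ANOVA, the arrays fitted, replicate block, clusters per gene and each array left out.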

Additional observations from a re-analysis of the deposited data

Results flagged for a closer look

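Among the 105 genes named, each preparation's 4 arrays were searched for a lone array far from the other 3, and 12 of 210 groups held one, where chance alone gives about 1 in 20. With humanFGF2, replicate 3 stood apart for Slc6a13 (8, others 7.09 to 7.16), Bmp2 (6.05, others 6.47 to 6.52) and Mthfd2 (10.03, others 10.08 to 10.09), and replicate 1 for Ier3 (10.55, others 10.07 to 10.13) and Hgf (6.44, others 6.38 to 6.39). With wtFGF2, replicate 4 stood apart for Tnfrsf12a (10.11, others 9.81 to 9.83), Wnt7a (8.12, others 8.46 to 8.53), Synpo2 (7.52, others 7.74 to 7.78) and Mthfd2 (9.79, others 9.49 to 9.5). Replicate 2 did so for Lipg (7.35, others 6.83 to 6.88) and Tgfb3 (10, others 9.86 to 9.88), and replicate 1 for Stk32a (6.94, others 7.15 to 7.19). None of these arrays reached the range of the other preparation.

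The 21032 transcript clusters with no gene symbol, which the report did not use, also held differences: in a fit of all clusters 103 of them were called (0.49%), 49 higher and 54 lower with wtFGF2, between -1.57 and 1.08 on the log2 scale, 3 of them dim in both groups.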

How the results depend on the processing

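No named gene changed direction under any alternative. Of the 91 named genes called, 76 kept their call under every alternative other than the 2-fold threshold and 15 lost it under at least 1, most of them on leaving out an array, as given beside their values; 28 passed 2-fold. Cdc6 and Mthfd2 also fell under 1.4-fold after quantile normalization or median subtraction, and Mthfd2 with the mean over clusters of a gene. Named genes not called gained a call 17 times, counting the adjusted p alone, as Smad3 under 5 alternatives, Nfkbia under 3 and Cxcl1 under 1. At 2-fold, 34 clusters were called between wtFGF2 and humanFGF2, 467 between wtFGF2 and control, 834 between humanFGF2 and control, and 16 list members against 73. With the adjusted p alone these were 1321, 6148, 7171 and 186. With all transcript clusters, 3457 were called between wtFGF2 and control, 5091 between humanFGF2 and control, and 29386 were bounded within 1.4-fold; 9371 were bounded once dim clusters were left out, which tests fewer clusters. Other alternatives kept these overall counts within 1.5 times, but not every count of a single list, as given beside the FGF, Notch, interferon-stimulated, motile cilia and leptomeningeal genes. Leaving out each array in turn gave 273 to 333 calls between the preparations, 2008 to 2094 for wtFGF2 and 2926 to 3048 for humanFGF2 against control, 68 to 82 list members and 13868 to 14108 bounded clusters. The share of calls lower with wtFGF2 was 64.7% as reported, 57.5% after subtraction of array medians and 60.1% after quantile normalization.

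Replicate numbers did not pair the samples: deviations of same-numbered wtFGF2 and humanFGF2 arrays correlated at 0.071, 0.095, 0.032 and -0.11. With a replicate block 302 clusters were called between the preparations, 2030 and 2981 against control, 72 list members, and 14207 were bounded; of the genes named, Nrarp and Slc13a4 lost their call. Depth does not apply to arrays. Dim values limit the 14 called clusters with a mean under 5, among them Areg, Ereg, Snai1 and Trib3.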

Other observations

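Some genes of motile cilia were higher with wtFGF2 than with humanFGF2. Their list and the next were drawn up after the values were seen and were not tested as sets. Of 58 measured motile cilia genes 11 (19%) were called higher and none lower, against 0.696% and 1.28% of all clusters. The median difference was 0.25, with a range from -0.1 to 0.6. By the adjusted p alone 18 were higher and none lower, against 3.51% of all clusters higher. Intervals within 1.4-fold were found for 30, against 90.9% of all clusters. Called members were Rfx2, a transcription factor of ciliogenesis (0.58), the dynein components Dnai3 (0.53) and Dnali1 (0.57), the radial spoke protein Rsph4a (0.51), and Enkur (0.53), Cfap65 (0.54), Clxn (0.49), Dnaaf11 (0.51), Capsl (0.57), Pierce1 (0.6) and Drc12 (0.6). Rfx2 read 6.96, 6.86, 6.96 and 6.91 with humanFGF2 and 7.46, 7.46, 7.68 and 7.38 with wtFGF2, against a control mean of 7.85. The mean level of the list was 7.14 to 7.56 in control arrays, 6.4 to 6.45 with humanFGF2 and 6.63 to 6.76 with wtFGF2. Against control 44 of the 58 were lower with humanFGF2 and 32 with wtFGF2, where 8.6% and 5.92% of all clusters were lower. The count of 11 fell to 3 without wtFGF2 replicate 1, to 6 without wtFGF2 replicate 2 and to 7 without humanFGF2 replicate 1, 2 or 4.

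Genes known from the leptomeninges varied between wtFGF2 arrays. Of 21 measured, Slc6a13, Ranbp3l, Slc13a4 and the connexin Gjb2 (0.87) were called higher and none lower, against 0.696% and 1.28% of all clusters. The list median was 0.19. Gjb2 read 7.34, 6.46, 6.82 and 7.85 on the wtFGF2 arrays and 5.98 to 6.48 with humanFGF2, and Ranbp3l 9.67, 8.49, 9.41 and 10.08 and 7.79 to 8.46. Replicates 1 and 4 were high and replicate 2 low for each of the 4 genes. The mean level of the list was 7.42 to 7.64 with humanFGF2 and 7.49 to 8.16 with wtFGF2, so the groups overlapped. The count of 4 fell to 2 without wtFGF2 replicate 1 or 4 or humanFGF2 replicate 1, 2 or 4, and with all transcript clusters, the one-way ANOVA contrast, the 8 arrays alone or a replicate block.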
